A study of Mus musculus with 12 samples.

Results

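The genes described here encode the proteins of the mitochondrial ribosome that carry Mrpl or Mrps symbols. They were taken from the table of estimated counts by symbol: Mrpl or Mrps followed by a digit, without pseudogene symbols. This gave 78 of the 17365 genes in the table, 49 named for the large subunit (Mrpl) and 29 for the small subunit (Mrps). The rule uses the symbol alone, and counts and sums per subunit below follow the symbols, so that Mrps30 and Mrps18a, which structures place in the large subunit, and Mrps36, known from another complex, count with the small subunit. All 78 were among the 13312 genes that passed edgeR's filter on low counts. RNA was measured in 12 libraries of adult mouse neural stem cells (NSCs), cultured from the subventricular zone of mice of 6 to 8 weeks and used below passage 10. The labels name no genetic change in either line. Proliferating cells were kept in EGF and FGF2 (EGF/FGF), dormant quiescent NSCs (d-qNSCs) were made with BMP4 alone (BMP), and primed quiescent NSCs (p-qNSCs) with BMP4 and FGF2 (BMP/FGF). Each factor was used at 10 ng/ml, the treatments with BMP4 lasted 3 days, and all cells were grown in the same serum-free medium with N2, B27 and laminin. Each condition had 4 libraries, 2 from the ANS4 line of MF1 mice and 2 from the BL6 line of C57BL/6 mice, so that each strain is represented by 1 line. The question was which of these genes differ between proliferation and the quiescent states, and between the quiescent states.

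Mitochondria keep their own ribosomes, which translate the few messages of the mitochondrial genome, all of them for subunits of the respiratory chain and ATP synthase. The ribosomal RNAs are made inside the organelle, whereas every ribosomal protein is encoded in the nucleus, made in the cytosol and imported. Some of these proteins descend from bacterial ribosomal proteins and others are particular to mitochondria. By this division, 48 of the 78 genes have a bacterial counterpart and 30 do not. In GENCODE vM21 on GRCm38 they lie on 17 chromosomes, and 78 is also the number of protein-coding genes the annotation lists under such symbols.

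Library totals lay between 18069052 and 19451818 counts, TMM factors between 0.972 and 1.03, and 3 counts equalled 0.154 to 0.166 CPM (counts scaled to library size and TMM factor). The lowest count of any member in any library was 79, and mean levels ran from 7.56 to 131 CPM with a median of 27.0, so depth did not limit detection of these genes. Proliferation and identity markers moved with the condition. Mki67, a marker of cycling cells, ranged over 533 to 804 CPM with EGF/FGF, 54.6 to 130 with BMP and 43.0 to 50.8 with BMP/FGF. The 8 NSC markers had sums of 7320 to 7929 CPM with EGF/FGF, 9184 to 10446 with BMP and 11143 to 11711 with BMP/FGF, while Nes, one of them, ran from 498 to 625, from 116 to 141 and from 112 to 119 CPM. The 5 astrocyte markers summed to 1183 to 1395, 2746 to 3922 and 4508 to 4777 CPM in the same order, the 6 oligodendrocyte lineage markers to 40.6 to 46.8, 215 to 248 and 291 to 301, the 5 neuron markers to 550.1 to 589, 848 to 1180.3 and 796 to 856, and 3 of 4 ependymal markers to 62.9 to 78.0, 191 to 232 and 197 to 209.6. The 3 endothelial markers analysed summed to 37.0 to 45.9, 4.12 to 5.65 and 13.5 to 17.3 CPM. Microglial and mesenchymal markers, 4 of each list, summed to at most 3.61 CPM in any library, with Csf1r, Col1a2 and Lum at 3 counts or fewer throughout. The part of these markers in the results below was not tested, and in bulk RNA fewer cells of a type and less RNA per cell cannot be told apart.

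The mitoribosomal protein transcripts were most abundant under EGF/FGF, lowest under BMP and intermediate under BMP/FGF. Their summed level was 3221, 3341, 3244 and 3143 CPM in the EGF/FGF libraries, in the order ANS4 replicates 1 and 2 and BL6 replicates 1 and 2, which is kept in all lists of 4 values. It was 2240.2, 2299, 2086 and 2031 CPM under BMP and 2524, 2439, 2388 and 2428 CPM under BMP/FGF. No condition overlapped with another. The mean fell short of EGF/FGF by 33.1% under BMP and by 24.5% under BMP/FGF. The large subunit genes stood at 66.6% and 74.6% of their EGF/FGF sum in BMP and BMP/FGF, and the small subunit genes at 67.2% and 77.2%. The ratio of large to small subunit sums was 1.72 ± 0.030 (SD, n = 4) in EGF/FGF, 1.71 ± 0.037 in BMP and 1.67 ± 0.038 in BMP/FGF, and its ranges overlapped between conditions.

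**Figure D1:**
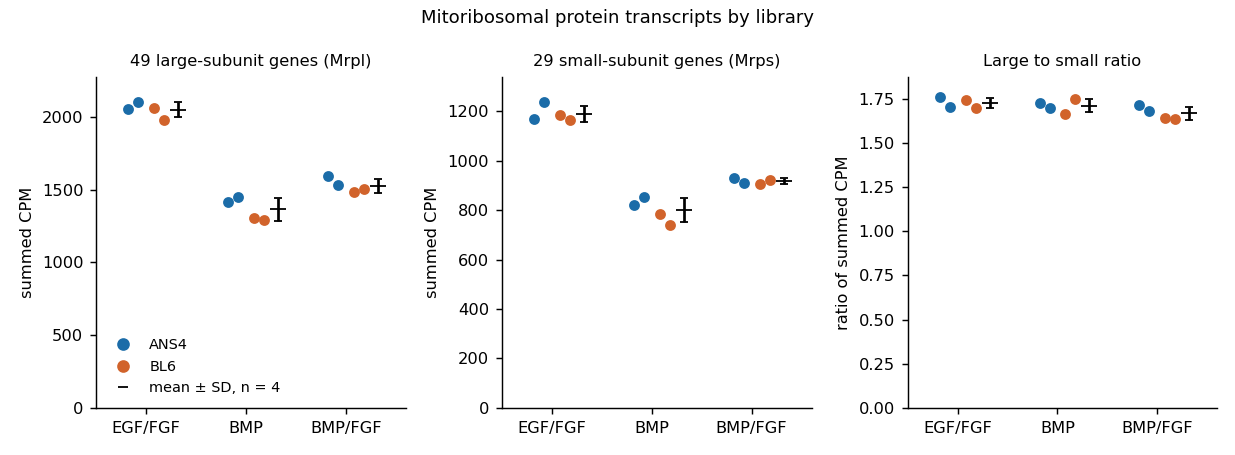
Summed CPM of the 49 large-subunit and 29 small-subunit genes and the ratio of these sums (y axes) in each of the 12 libraries by condition (x axis), coloured by cell line, with the mean ± SD of 4 libraries in black. Both sums are highest in the EGF/FGF libraries and lowest in BMP, while the ratio lies between 1.63 and 1.76 throughout.

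Between dormant quiescence and proliferation nearly the whole set was lower in BMP. Of the 78 genes, 71 fell and 0 rose in BMP against EGF/FGF at an adjusted p under 0.05 (edgeR quasi-likelihood test), with a median log2 fold change of -0.57. Over all 13312 tested genes, 38.8% were called lower and 40.8% higher, and the median was 0.02. At an unadjusted p under 0.05, 0 members were higher, and DESeq2 and limma-trend also called 0 higher. The counts were 45 of 49 for the large subunit (median -0.54) and 26 of 29 for the small subunit (median -0.59), and 43 of 48 for proteins with a bacterial counterpart (median -0.52) and 28 of 30 for those without (median -0.59). In 65 genes every BMP library lay below every EGF/FGF library, as in 34.8% of all tested genes. In each line alone, 73 genes had a lower mean in both lines, as had 44.6% of all tested genes, with medians of -0.48 in ANS4 and -0.61 in BL6.

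**Figure D2:**
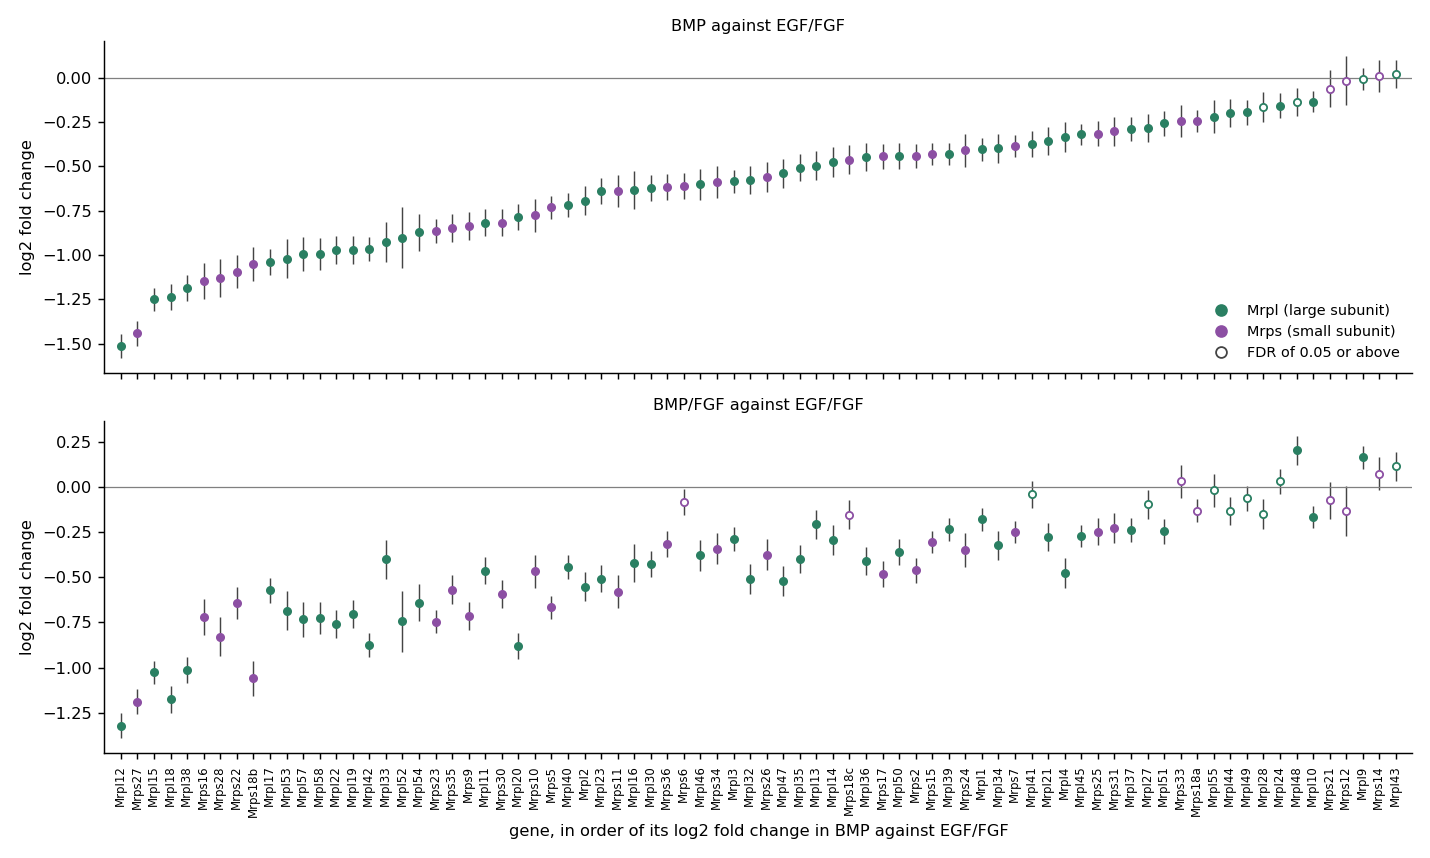
Log2 fold change (y axis, points with SE) of each of the 78 genes (x axis, in the order of the upper plot) in BMP against EGF/FGF and in BMP/FGF against EGF/FGF, with large-subunit genes in green and small-subunit genes in purple, and open points for an adjusted p of 0.05 or above. The upper values run from -1.51 (Mrpl12) to 0.02 (Mrpl43), and 2 filled points, Mrpl9 and Mrpl48, lie above 0 in the lower plot.

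The 5 largest falls in BMP were those of Mrpl12, Mrps27, Mrpl15, Mrpl18 and Mrpl38. In all, 11 of the 78 genes were called lower with a fall of more than 1 on the log2 scale. Among all tested genes this held for 1770 of 13312, a share close to that of the members. Mrpl12 (ENSMUSG00000039640, chr11:120484613-120489065, plus strand) encodes a protein of the stalk, where translation factors dock. Its level was 68.4, 75.6, 64.7 and 63.3 CPM in EGF/FGF, 23.5, 26.7, 22.9 and 22.1 CPM in BMP and 27.5, 27.0, 27.8 and 26.4 CPM in BMP/FGF. The EGF/FGF libraries were far above all others (log2 fold change -1.51 ± 0.07 (SE), adjusted p = 7.7e-13). Mrps27 (ENSMUSG00000041632, chr13:99344786-99415562, plus strand) encodes a pentatricopeptide repeat protein of the small subunit without a bacterial counterpart. It was measured at 43.1, 43.6, 44.1 and 45.5 CPM in EGF/FGF, 16.5, 17.6, 15.3 and 15.5 CPM in BMP and 20.0, 19.8, 19.8 and 17.8 CPM in BMP/FGF. Here too the 4 EGF/FGF libraries stood apart, and the BMP and BMP/FGF libraries did not overlap (log2 fold change -1.44 ± 0.07 (SE), adjusted p = 2.4e-12).

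Mrpl15 (ENSMUSG00000033845, chr1:4773206-4785739, minus strand), the counterpart of a bacterial large-subunit protein, was found at 73.2, 79.5, 71.7 and 71.1 CPM in EGF/FGF, 34.1, 34.4, 28.2 and 27.9 CPM in BMP and 39.0, 35.4, 35.1 and 35.5 CPM in BMP/FGF. All quiescent libraries were lower than the EGF/FGF libraries (log2 fold change -1.25 ± 0.07 (SE), adjusted p = 5.5e-12). Mrpl18 (ENSMUSG00000057388, chr17:12911349-12916345, minus strand), also of bacterial descent, had 50.2, 47.1, 53.5 and 54.8 CPM in EGF/FGF, 21.8, 22.9, 22.9 and 19.4 CPM in BMP and 21.9, 23.3, 22.2 and 23.5 CPM in BMP/FGF. Its quiescent libraries overlapped each other and lay below proliferation (log2 fold change -1.24 ± 0.07 (SE), adjusted p = 3.8e-11). Its exons share 141 bases with exons of Tcp1 on the other strand. Mrpl38 (ENSMUSG00000020775, chr11:116131817-116138868, minus strand), particular to mitochondria, was at 63.9, 68.0, 67.7 and 62.5 CPM in EGF/FGF, 29.8, 29.1, 24.9 and 31.5 CPM in BMP and 35.4, 32.3, 30.6 and 31.6 CPM in BMP/FGF. Again the proliferating libraries were the high ones (log2 fold change -1.19 ± 0.07 (SE), adjusted p = 6.7e-11).

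The 7 genes that did not pass the test in BMP against EGF/FGF were Mrpl9, Mrpl28, Mrpl43, Mrpl48, Mrps12, Mrps14 and Mrps21, with log2 fold changes from -0.17 to 0.02. Mrpl43, a large-subunit protein without bacterial counterpart, was at 31.9, 38.1, 29.98 and 30.6 CPM in EGF/FGF and 31.0, 34.7, 33.9 and 32.6 CPM in BMP (log2 fold change 0.02 ± 0.08 (SE), adjusted p = 0.83). The libraries overlapped, and its exons share 507 bases with exons of Twnk on the other strand. Mrps14, the counterpart of a bacterial small-subunit protein, gave 21.5, 24.1, 20.9 and 23.4 CPM in EGF/FGF and 25.1, 24.4, 20.0 and 21.2 CPM in BMP (log2 fold change 0.01 ± 0.09 (SE), adjusted p = 0.92). Of these 8 libraries the ANS4 ones under BMP were the highest and a BL6 one under BMP the lowest, and its BMP/FGF libraries, at 22.1, 22.3, 23.9 and 26.3 CPM, overlapped with both conditions. Mrps12, whose bacterial counterpart sits at the decoding centre, was low and scattered, with 8.64, 11.2, 9.94 and 8.73 CPM in EGF/FGF and 7.51, 10.7, 8.04 and 11.7 CPM in BMP (log2 fold change -0.02 ± 0.14 (SE), adjusted p = 0.9). Its SE of 0.14 was larger than that of the other 6. Mrps21 had a log2 fold change of -0.06 ± 0.10 (SE) with adjusted p = 0.59, and Mrpl28 one of -0.17 ± 0.08 (SE) with adjusted p = 0.077.

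The upstream sequences of the largest falls, Mrpl12 and Mrps27, and of genes not called in BMP, Mrpl9, Mrps14 and Mrpl43, are shown side by side, since all code for parts of the same particle. The 80 bases before the RefSeq transcript start (GRCm38.p6) are written 5′ to 3′ on the gene's strand. Capitals mark matches, on either strand, to the 5 motifs searched, which are named below. The end of the Mrpl12 stretch lies in its first GENCODE exon.
Mrpl12 (chr11:120484557-120484636, plus strand): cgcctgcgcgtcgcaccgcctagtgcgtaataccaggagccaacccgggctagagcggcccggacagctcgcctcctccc
Mrps27 (chr13:99344706-99344785, plus strand): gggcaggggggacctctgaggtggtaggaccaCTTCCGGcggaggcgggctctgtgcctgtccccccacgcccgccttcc
Mrpl9 (chr3:94443256-94443335, plus strand): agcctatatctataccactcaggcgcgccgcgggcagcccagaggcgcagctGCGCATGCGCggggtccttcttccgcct
Mrps14 (chr1:160195135-160195214, plus strand): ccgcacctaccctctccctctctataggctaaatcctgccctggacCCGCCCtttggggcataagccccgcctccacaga
Mrpl43 (chr19:45006443-45006522, minus strand): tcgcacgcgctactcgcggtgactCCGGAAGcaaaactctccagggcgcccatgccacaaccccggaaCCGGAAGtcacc

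The motifs were the core of the NRF1 site (GCATGCGC), the ETS site bound by GABPA (CCGGAAG), a YY1 site (AAGATGGCG), the E-box (CACGTG) and the GC box (GGGCGG), with overlaps between motifs allowed. NRF1, GABPA and YY1 are known regulators of nuclear genes for mitochondria. Among the stretches shown, Mrps27 holds the ETS letters from 48 bases before the start, on the opposite strand, and Mrpl43 holds them from 56 and from 12 bases before the start. Mrpl9 holds the NRF1 letters on each strand, in overlapping matches from 28 and 26 bases before the start, and Mrps14 a GC box on the opposite strand from 34 bases before it. Mrpl12 holds none of the 5 within these 80 bases. Windows of 300 bases, 250 before the start and 50 after, were found for 69 of the 78 members, 3 of them with more than 1 window. The ETS letters occurred in 26 of the 69 (37.7%), against 19.5% of the 10585 tested genes with a window and 9.93% of all 27025 genes with one. The NRF1 letters were in 8 (11.6%), against 5.96% and 3.05%. The YY1 letters were also in 8 (11.6%), against 3.40% and 1.64%, and 2 (2.90%) held them before the start. With the 250 bases before the start alone, the ETS share was 26.1% against 15.2% of tested genes. The GC box was in 34 (49.3%), against 69.2% and 38.2%, and the E-box in 5 (7.25%), against 11.6% and 8.09%. In BMP against EGF/FGF, the median log2 fold change was -0.72 in members with the ETS letters and -0.45 in those without, and -0.75 and -0.48 with and without the NRF1 letters. The medians with and without were -0.57 and -0.45 for the GC box, but -0.48 and -0.54 for the YY1 letters and -0.46 and -0.52 for the E-box. None of these splits was tested. No motif was found in 16 of the 69.

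Proteins with a known place or a further function were examined by role. In the stalk, Mrpl10 is the protein to which Mrpl12 is attached. Its levels were 54.7, 58.0, 56.3 and 52.7 CPM in EGF/FGF, 53.1, 53.9, 48.9 and 46.1 CPM in BMP and 53.2, 51.5, 48.6 and 44.7 CPM in BMP/FGF. The ranges overlapped, and the fall in BMP was small (log2 fold change -0.14 ± 0.06 (SE), adjusted p = 0.047). It passed the test in 9 of 23 alternative settings, with adjusted p from 0.027 to 0.31. Mrpl45, which holds the ribosome at the inner membrane near the exit of the peptide tunnel, fell from 57.2 ± 4.25 CPM (SD, n = 4) in EGF/FGF to 45.8 ± 3.21 CPM in BMP (log2 fold change -0.32 ± 0.06 (SE), adjusted p = 0.00011). Mrpl47 fell from 16.8 ± 0.998 to 11.6 ± 0.616 CPM (log2 fold change -0.54 ± 0.08 (SE), adjusted p = 1.1e-05). Mrpl55 fell from 10.3 ± 0.929 to 8.89 ± 0.862 CPM (log2 fold change -0.22 ± 0.09 (SE), adjusted p = 0.038), with overlapping libraries, and passed in 9 of 23 alternative settings.

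Mrpl58, known also as a peptide release factor that rescues stalled ribosomes, had 35.9, 41.7, 42.9 and 34.6 CPM in EGF/FGF, 19.5, 23.0, 18.2 and 17.3 CPM in BMP and 24.0, 23.7, 22.5 and 23.6 CPM in BMP/FGF. The EGF/FGF libraries were the highest and did not overlap with the others (log2 fold change -0.996 ± 0.09 (SE), adjusted p = 1.1e-08). Mrps30, named for the small subunit but placed in the large subunit by structures, fell from 47.4 ± 2.24 to 26.9 ± 2.27 CPM (log2 fold change -0.82 ± 0.08 (SE), adjusted p = 2.2e-08). Mrps36, which is known as a subunit of the 2-oxoglutarate dehydrogenase complex, fell from 42.2 ± 1.55 to 27.6 ± 2.88 CPM (log2 fold change -0.62 ± 0.07 (SE), adjusted p = 3.9e-07).

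The 3 relatives of the bacterial S18 protein, Mrps18a, Mrps18b and Mrps18c, all fell in BMP. Mrps18b (ENSMUSG00000024436, chr17:35910379-35916389, minus strand) showed 17.1, 19.3, 20.7 and 23.2 CPM in EGF/FGF, 8.72, 9.35, 9.28 and 11.3 CPM in BMP and 10.2, 8.41, 10.0 and 9.72 CPM in BMP/FGF. The proliferating libraries were highest, and the quiescent ones overlapped (log2 fold change -1.05 ± 0.10 (SE), adjusted p = 1.4e-08). Mrps18c showed 26.2, 24.7, 22.7 and 24.7 CPM, 18.99, 18.2, 17.6 and 16.6 CPM and 19.5, 23.8, 22.0 and 23.1 CPM in the same order of conditions. It was lowest in BMP, and its BMP/FGF libraries overlapped with EGF/FGF (log2 fold change -0.46 ± 0.08 (SE), adjusted p = 4.8e-05). Mrps18a, which structures place in the large subunit, showed 53.1, 50.5, 49.1 and 46.7 CPM, 44.8, 40.6, 41.6 and 41.5 CPM and 46.6, 44.1, 44.1 and 47.3 CPM. Its fall in BMP was the smallest of the 3 (log2 fold change -0.24 ± 0.06 (SE), adjusted p = 0.0016). The differences among these genes were not tested.

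Primed quiescent cells were lower than proliferating cells in most of the same family. Against EGF/FGF, 61 of 78 genes fell and 2 rose in BMP/FGF, with a median log2 fold change of -0.40, while 38.0% of all tested genes were called lower and 40.9% higher, with a median of 0.02. For the large subunit 39 fell and 2 rose, and for the small subunit 22 fell and 0 rose. This comparison has the EGF/FGF libraries in common with the previous one, so the values are given side by side only. The 5 largest falls were in Mrpl12 (-1.32 ± 0.07 (SE) against -1.51 ± 0.07 (SE) in BMP), Mrps27 (-1.19 against -1.44), Mrpl18 (-1.18 against -1.24), Mrps18b (-1.06 against -1.05) and Mrpl15 (-1.03 against -1.25). Their adjusted p-values were at most 1.4e-08. The 15 genes that did not pass the test had log2 fold changes between -0.15 and 0.12, among them Mrpl28, Mrpl43, Mrps12, Mrps14 and Mrps21.

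The genes that rose were Mrpl9 and Mrpl48. Mrpl48, a large-subunit protein without bacterial counterpart, was at 22.9, 25.3, 25.2 and 23.4 CPM in EGF/FGF, 22.3, 21.4, 24.99 and 19.4 CPM in BMP and 27.5, 27.5, 28.6 and 27.8 CPM in BMP/FGF. The 4 BMP/FGF libraries were above all 8 others (log2 fold change 0.20 ± 0.08 (SE), adjusted p = 0.027). Mrpl9, of bacterial descent, was at 43.1, 47.8, 42.2 and 41.8 CPM, 46.3, 46.4, 42.9 and 38.5 CPM and 51.1, 48.2, 48.0 and 48.6 CPM in the same order. Its BMP/FGF libraries were also the highest, by a small margin (log2 fold change 0.17 ± 0.06 (SE), adjusted p = 0.024). Either call was lost without ANS4 EGF/FGF replicate 1, BL6 EGF/FGF replicate 2, ANS4 BMP/FGF replicate 1, BL6 BMP/FGF replicate 1 or BL6 BMP/FGF replicate 2, each of which left 0 genes higher. Exons of Mrpl48 share 708 bases with Rab6a, and those of Mrpl9 share 157 with Oaz3, both on the other strand.

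**Figure D3:**
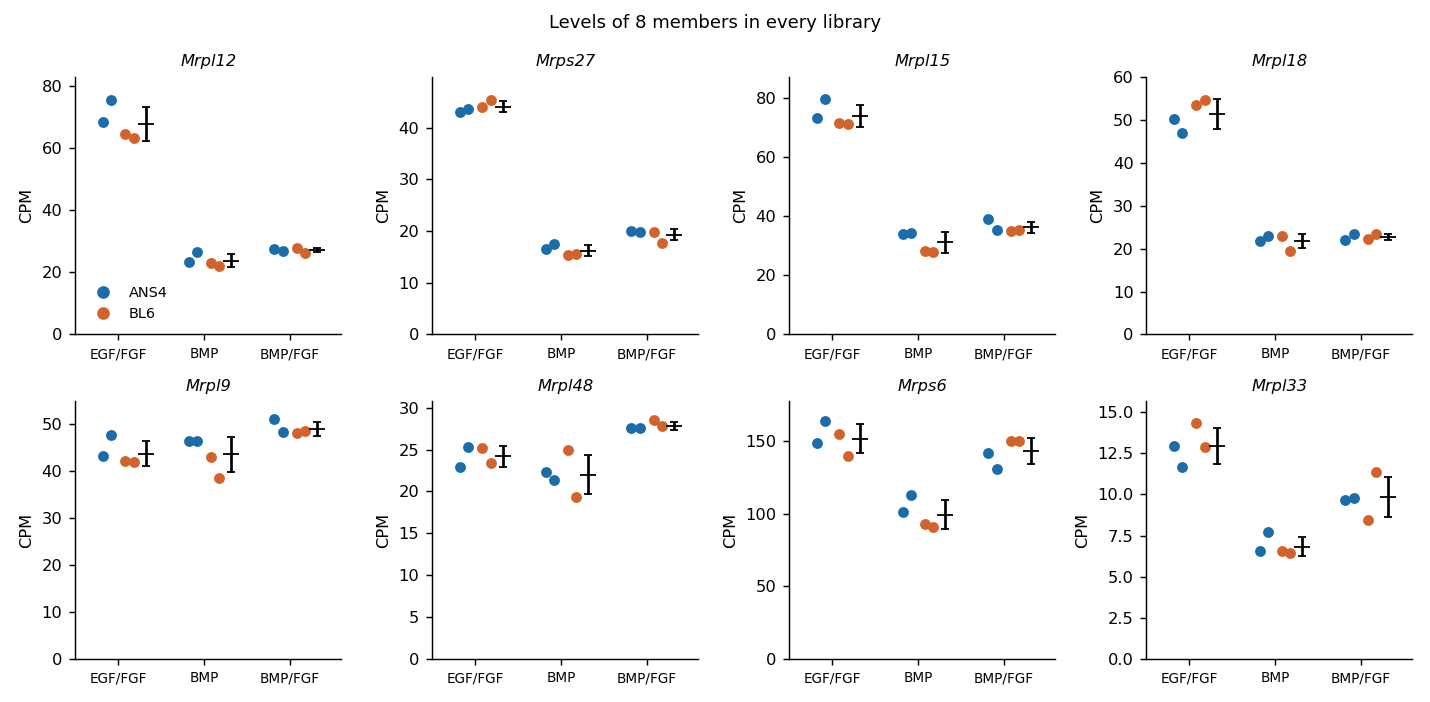
CPM (y axes, from 0) of 8 members in each of the 12 libraries by condition (x axis), coloured by line, with the mean ± SD of 4 libraries in black. Mrpl12, Mrps27, Mrpl15 and Mrpl18 are highest in EGF/FGF, Mrpl9 and Mrpl48 in BMP/FGF, and Mrps6 and Mrpl33 are lowest in BMP.

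With FGF2 added to BMP4, part of the set was higher than with BMP4 alone. Against BMP, 32 of 78 genes rose and 0 fell in BMP/FGF, with a median log2 fold change of 0.17. Of all tested genes, 20.1% were called higher and 21.3% lower, with a median of -0.004. At an unadjusted p under 0.05, 39 members (and 23.9% of all tested genes) were higher and 0 members lower, and DESeq2 and limma-trend called 26 and 25 higher and 0 lower. The calls comprised 20 of 49 large-subunit and 12 of 29 small-subunit genes, and 18 of 48 with and 14 of 30 without a bacterial counterpart. The count was 21 without ANS4 BMP/FGF replicate 1, 20 without BL6 BMP/FGF replicate 1 and 17 without BL6 BMP/FGF replicate 2, 20 with scaling by library size alone, and 14 in the ANS4 libraries alone against 28 in BL6 alone. In 61 genes the mean was higher in both lines, against 35.5% of all tested genes, and in 27 every BMP/FGF library lay above every BMP library, against 17.6%.

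**Figure D4:**
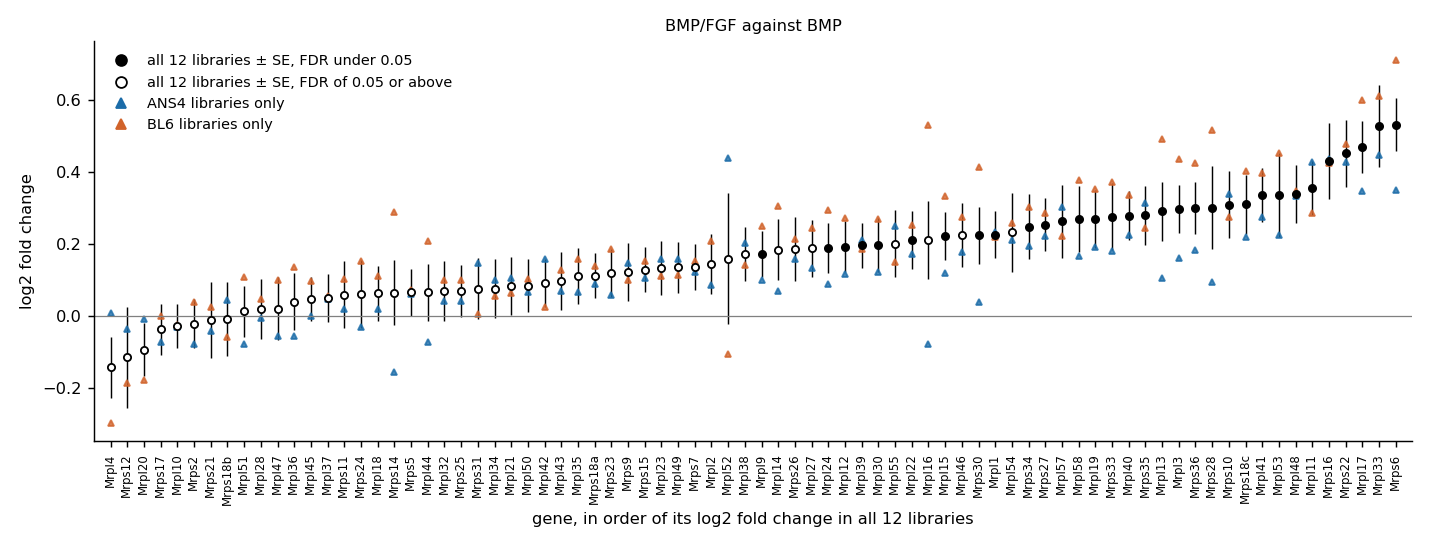
Log2 fold change (y axis) of each of the 78 genes (x axis) in BMP/FGF against BMP, as circles with SE over all libraries (filled where the adjusted p is under 0.05) and as triangles for the ANS4 and the BL6 libraries alone. All 32 filled circles lie above 0, and the values run from -0.14 (Mrpl4) to 0.53 (Mrps6).

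The 5 largest rises were those of Mrps6, Mrpl33, Mrpl17, Mrps22 and Mrps16. Mrps6 (ENSMUSG00000039680, chr16:92058270-92112227, plus strand), the counterpart of a bacterial small-subunit protein, was at 149, 164, 155 and 139.8 CPM in EGF/FGF, 101, 113, 92.6 and 90.6 CPM in BMP and 142, 131, 149.9 and 149.8 CPM in BMP/FGF. The BMP libraries were the lowest, while BMP/FGF and EGF/FGF overlapped (log2 fold change 0.53 ± 0.07 (SE), adjusted p = 2.2e-05). Its value is uncertain, since its exons share 159 bases with exons of Slc5a3 on the same strand. Slc5a3, a myo-inositol transporter, averaged 479 CPM in EGF/FGF, 147 in BMP and 144 in BMP/FGF. Without Mrps6 the summed level of the other members still stood at 66.9% of EGF/FGF in BMP and 74.6% in BMP/FGF.

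Mrpl33 (ENSMUSG00000106918, chr5:31596935-31664384, plus strand), the counterpart of a small bacterial large-subunit protein, had 12.9, 11.7, 14.4 and 12.9 CPM in EGF/FGF, 6.57, 7.69, 6.53 and 6.47 CPM in BMP and 9.65, 9.81, 8.44 and 11.4 CPM in BMP/FGF. The 3 conditions did not overlap (log2 fold change 0.53 ± 0.11 (SE), adjusted p = 0.0014). Mrpl17 (ENSMUSG00000030879, chr7:105803206-105811099, minus strand), also of bacterial descent, reached 119, 125, 125 and 117 CPM in EGF/FGF, 67.9, 65.8, 53.2 and 51.1 CPM in BMP and 89.2, 81.0, 82.4 and 75.4 CPM in BMP/FGF. Here too the conditions were separate (log2 fold change 0.47 ± 0.07 (SE), adjusted p = 6e-05). Mrps22 (ENSMUSG00000032459, chr9:98588730-98601660, minus strand), particular to mitochondria, showed 33.6, 35.0, 39.8 and 35.1 CPM, 16.5, 18.9, 17.7 and 14.2 CPM and 25.2, 22.5, 22.3 and 22.1 CPM in the same order of conditions. Its BMP/FGF libraries lay between the other conditions (log2 fold change 0.45 ± 0.09 (SE), adjusted p = 0.00088). Mrps16 (ENSMUSG00000049960, chr14:20389304-20393634, minus strand), counterpart of a bacterial small-subunit protein, showed 14.2, 14.9, 12.4 and 15.5 CPM, 6.13, 6.97, 6.01 and 6.57 CPM and 8.46, 9.27, 7.94 and 8.94 CPM. The order of conditions was the same as in Mrps22 (log2 fold change 0.43 ± 0.11 (SE), adjusted p = 0.0036). By contrast, Mrpl18 and Mrps18b, both among the largest falls, had log2 fold changes of 0.06 ± 0.08 (SE) and -0.01 ± 0.10 (SE) between the quiescent states (adjusted p = 0.54 and 0.95).

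The lines were compared in level and in response. Between BL6 and ANS4, 0 of 78 genes were called higher and 0 lower, against 1.07% and 0.721% of all tested genes, and DESeq2 and limma-trend also called 0. Without ANS4 BMP/FGF replicate 2, 1 gene was called lower. At an unadjusted p under 0.05, 15 members differed, 1 higher and 14 lower in BL6, while 18.4% of all tested genes did, 1310 higher and 1134 lower. The log2 fold change of BL6 against ANS4 was below 0 in 71 of the 78 members, with a median of -0.07. Among the 13312 tested genes it was below 0 in 6510, with a median of 0.003. This lean of the members was small and was not tested as a set. It was not particular to them. The value was below 0 in 72 of 73 nuclear genes for the respiratory chain and ATP synthase (median -0.13). It was also below 0 in 63 of 80 cytosolic ribosomal protein genes (median -0.04). The response to BMP against EGF/FGF differed between the lines in 3 genes, all with a larger fall in BL6, while 9.02% of all tested genes differed in either direction. For Mrpl16, of bacterial descent like Mrpl13 and Mrpl17, the log2 fold change was -0.37 in ANS4 and -0.94 in BL6 (difference -0.55 ± 0.14 (SE), adjusted p = 0.017). The BMP libraries, at 20.4, 21.1, 14.9 and 13.3 CPM, separated by line, while those of EGF/FGF, at 26.6, 27.1, 25.4 and 28.0 CPM, did not. Mrpl13 had -0.31 in ANS4 and -0.71 in BL6 (difference -0.38 ± 0.11 (SE), adjusted p = 0.044), and Mrpl17 had -0.87 and -1.23 (difference -0.34 ± 0.10 (SE), adjusted p = 0.045). Of 20 alternative settings, Mrpl16 passed in 17, Mrpl17 in 5 and Mrpl13 in 2. The count of 3 genes changed whichever library was left out. It rose without BL6 BMP replicate 1 and fell without any other. Each such fit leaves 1 library in a cell of line and condition.

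The lines differed in 5 genes in BMP/FGF against BMP, against 13.5% of all tested genes, each with a larger log2 fold change in BL6. Mrpl16 had -0.08 in ANS4 and 0.53 in BL6 (difference 0.61 ± 0.14 (SE), adjusted p = 0.0085), and this difference passed the test in all 20 alternative settings. Mrps6 had 0.35 and 0.71 (difference 0.36 ± 0.11 (SE), adjusted p = 0.031), and Mrpl13 had 0.11 and 0.49 (difference 0.38 ± 0.12 (SE), adjusted p = 0.034). Mrps14 had -0.16 and 0.29 (difference 0.44 ± 0.14 (SE), adjusted p = 0.039), and Mrps30 had 0.04 and 0.41 (difference 0.37 ± 0.12 (SE), adjusted p = 0.049). These passed in fewer of the 20 settings, Mrps6 in 15, Mrpl13 and Mrps14 in 9 each and Mrps30 in 5. The count rose without BL6 BMP replicate 1. It fell without any other BMP or BMP/FGF library and without either BL6 EGF/FGF library. Without either ANS4 EGF/FGF library it stayed the same. Each of these fits leaves 1 library in a cell of line and condition. For BMP/FGF against EGF/FGF, 0 members differed, against 4.98% of tested genes, with 4 at an unadjusted p under 0.05 (20.2% of tested genes) and 0 by DESeq2 or limma-trend.

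Levels of different genes were compared per kilobase of the median annotated protein-coding transcript. In EGF/FGF, Mrps6 (179 ± 11.9 CPM per kilobase, SD, n = 4), Mrpl17 (164 ± 5.53) and Mrpl42 (137 ± 4.83) were the highest. Mrpl47 (5.00 ± 0.297), Mrps26 (5.14 ± 0.196) and Mrps16 (5.54 ± 0.527) were the lowest, and their spreads overlapped. With the longest annotated transcript as length, Mrpl17 moved from rank 2 to rank 57 of 78, at 16.7 CPM per kilobase, so its place is not settled, whereas the other 5 moved by at most 1 rank. Mrpl42, a protein without bacterial counterpart, fell in BMP (log2 fold change -0.97 ± 0.07 (SE), adjusted p = 2.2e-10), as did Mrps26 (log2 fold change -0.56 ± 0.09 (SE), adjusted p = 1.2e-05).

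Reads of neighbouring genes can bear on these estimates. Exons of 4 members share bases with exons of another protein-coding gene on the same strand, Mrps6, Mrps24, Mrps34 and Mrpl53, and those of 20 members with a protein-coding gene on the other strand. Mrpl46 and Mrps11 share 173 bases with each other, and were measured at log2 fold changes of -0.60 and -0.64 in BMP against EGF/FGF. The strand setting used in counting is not given in the sources used here.

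The other genes of mitochondrial translation were examined in 6 lists, whose counts stand beside the 38.8% of all tested genes called lower and 40.8% called higher in BMP against EGF/FGF. Of 7 mitoribosomal proteins known by other names, 5 were analysed, and 4 fell and 0 rose in BMP against EGF/FGF (median log2 fold change -0.68). The fall was largest in Chchd1, from 48.1 ± 0.996 to 16.4 ± 3.24 CPM (SD, n = 4), with 24.5 ± 2.08 CPM in BMP/FGF (log2 fold change -1.56 ± 0.10 (SE), adjusted p = 1.9e-10). Dap3, the GTP-binding protein of the small subunit, Ptcd3 and Gadd45gip1 fell by less (-0.41, -0.71 and -0.68), and Aurkaip1 had -0.03 ± 0.07 (SE) (adjusted p = 0.64). Among 16 genes in the list of translation factors 7 fell, or 43.8%, near the share of all tested genes, and 1 rose (median -0.33). The list also holds genes that are not translation factors, among them Mtfmt, Oxa1l, Pdf, Metap1d and Tmem126a. Of these, Tmem126a was among the falls (-1.24). Tsfm, the exchange factor of the elongation factor Tufm, fell most (log2 fold change -1.25 ± 0.11 (SE), adjusted p = 1.1e-08), and the initiation factor Mtif3 rose (log2 fold change 0.25 ± 0.08 (SE), adjusted p = 0.0079), while the other initiation factor, Mtif2, fell (log2 fold change -0.66 ± 0.09 (SE), adjusted p = 2.5e-06). Tufm and the elongation factor Gfm1 fell (-0.35 and -0.60), and the recycling factor Mrrf had -0.12 ± 0.07 (SE) (adjusted p = 0.13).

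Of 28 assembly and rRNA modification factors 17 (60.7%) fell and 1 rose (median -0.28), with Malsu1, a large-subunit assembly factor, at -1.15 and Mterf4 at 0.32. Of 20 genes for mitochondrial tRNA charging 14 fell and 3 rose (median -0.46). Yars2, the tyrosine enzyme, fell most (log2 fold change -1.60 ± 0.10 (SE), adjusted p = 6.3e-11), and Gatb, of the complex that makes glutaminyl-tRNA, rose most (log2 fold change 0.92 ± 0.10 (SE), adjusted p = 8.5e-08). Of 14 genes for transcription and upkeep of the mitochondrial genome 8 fell and 3 rose (median -0.32), with the nuclease Mgme1 at -1.04 and Mterf2 at 0.80. The mitochondrial RNA polymerase Polrmt fell (log2 fold change -0.55 ± 0.08 (SE), adjusted p = 9e-06), and Tfam, which packages the mitochondrial genome, fell slightly (log2 fold change -0.18 ± 0.08 (SE), adjusted p = 0.048).

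Among 10 regulators of nuclear genes for mitochondria 5 fell and 3 rose in BMP, in a list of few genes and beside the shares of all tested genes given above. The coactivator Ppargc1a rose from 28.5 ± 1.31 to 65.3 ± 4.66 CPM, with 52.7 ± 2.00 CPM in BMP/FGF (log2 fold change 1.20 ± 0.07 (SE), adjusted p = 1e-11). Its relative Ppargc1b fell from 8.05 ± 1.09 to 1.49 ± 0.227 CPM, with 1.25 ± 0.518 CPM in BMP/FGF (log2 fold change -2.43 ± 0.20 (SE), adjusted p = 4.2e-09). Nrf1 fell (log2 fold change -0.39 ± 0.08 (SE), adjusted p = 0.00016), and Gabpa, at 136 ± 7.64 and 141 ± 10.7 CPM, did not pass the test (log2 fold change 0.05 ± 0.07 (SE), adjusted p = 0.5). Gabpb1 fell (log2 fold change -0.51 ± 0.07 (SE), adjusted p = 3.7e-06), as did Yy1 (log2 fold change -0.35 ± 0.06 (SE), adjusted p = 2.3e-05). Between the quiescent states, the 6 lists had in BMP/FGF 1 rise and 0 falls, 4 and 2, 5 and 0, 2 and 1, 2 and 3, and 0 and 4, in the order given here. With 20.1% of all tested genes called higher and 21.3% lower in that comparison, the shares of rises lay at or below the background in each list but the translation factors (4 of 16). The regulators that fell there include Nrf1 (-0.23) and Ppargc1a (-0.31).

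Cytosolic ribosomal protein genes and nuclear genes for the respiratory chain and ATP synthase were set beside the mitoribosomal genes. All 80 tested cytosolic ribosomal protein genes fell in BMP against EGF/FGF, with a median log2 fold change of -1.20, against -0.57 for the 78 mitoribosomal genes. The summed level of all 85 such genes counted, including those that failed the filter, stood at 42.5% of EGF/FGF. Of 73 respiratory chain and ATP synthase genes 61 fell and 2 rose, with a median of -0.46 and a sum at 69.2% of EGF/FGF. In BMP/FGF against EGF/FGF the medians were -1.02 and -0.29. In BMP/FGF against BMP, 43 of the 80 and 23 of the 73 rose and none fell in either list, with medians of 0.21 and 0.15 beside 0.17. In ANS4 and BL6 alone, the medians were 0.03 and 0.25 for the respiratory chain and ATP synthase genes. They were 0.15 and 0.24 for the cytosolic ribosomal protein genes and 0.12 and 0.21 for the mitoribosomal genes. Every BMP/FGF library lay above every BMP library in 7 of the 73, 36 of the 80 and 27 of the 78 genes, against 17.6% of all tested genes. No test of the difference between these lists was made.

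**Figure D5:**
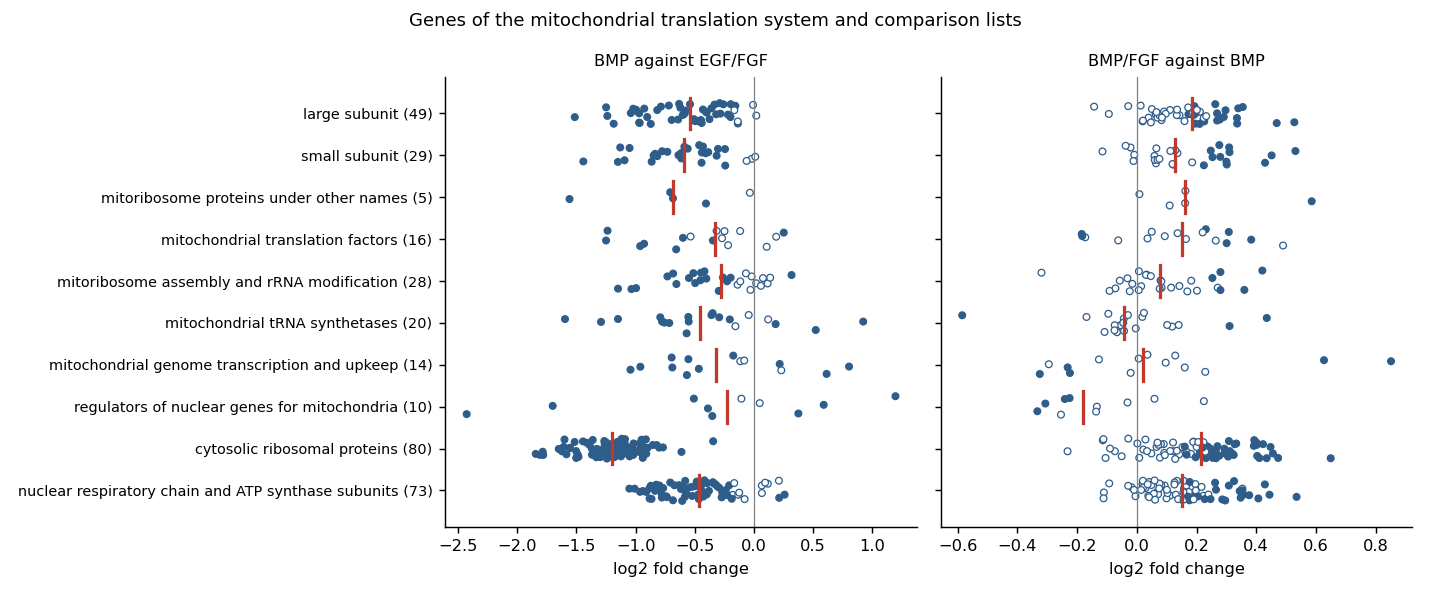
Log2 fold change (x axes) of single genes in lists of the mitochondrial translation system and the 2 comparison lists (rows, number of tested genes in brackets), in BMP against EGF/FGF and in BMP/FGF against BMP, with filled points for an adjusted p under 0.05 and a red bar at each list's median. In BMP against EGF/FGF the median of the cytosolic ribosomal protein genes (-1.20) lies to the left of the medians of both mitoribosomal subunits (-0.54 and -0.59).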

How the data were processed

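RNA-seq libraries came from mouse NSCs, 12 in all with 4 each in EGF/FGF, BMP and BMP/FGF, made with a low input protocol for BGISEQ-500RS from RNA with an integrity number of at least 9.6. The authors trimmed reads with Trim Galore 0.5.0, assigned them to mm10 transcripts with kallisto 0.44.0, summed them to genes with tximport (tool versions are from the submitters' processing notes) and deposited estimated counts as whole numbers. They also deposited log2 values, made with the regularized logarithm (rlog) of DESeq2 1.27.32. The groups, lines and replicate numbers came from the labels, which call the 2 replicates per line and condition biological. No source used here says what separated them, so the p-values measure the spread between these libraries, which may be technical.

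Genes were filtered with filterByExpr, scaled by TMM and fitted with edgeR's quasi-likelihood test on all 12 libraries with condition and line as terms, two-sided, with Benjamini-Hochberg adjustment over the 13312 genes tested and calls at an adjusted p under 0.05. Line by condition interactions were tested likewise. The SE of a log2 fold change is its size divided by the square root of the F statistic. CPM are TMM-scaled. Columns of per-sample values not used numbered 0. R 4.3.3, edgeR 4.0.16, limma 3.58.1, DESeq2 1.42.0, Python 3.11.15, pandas 2.3.3, scipy 1.17.1 and matplotlib 3.10.9 were used. The steps were checked on simulated counts. Replicates of a line and condition differed by more than sampling noise, with chi-square per degree of freedom of 2.12 to 12.2. Floors of counts cover counting error only, whereas the SD and SE given include the spread between libraries. Gene positions and lengths came from GENCODE vM21 and promoters from RefSeq (GRCm38.p6).

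The members and lists were chosen with earlier results of these data known. The lists of cytosolic ribosomal protein genes and of respiratory chain and ATP synthase genes were set by symbol patterns after the members' values had been seen. Named members are, per comparison, the 5 largest rises and falls with the same direction in both lines, the genes against the majority or not called where these are 10 or fewer, up to 5 smallest interaction p-values, the genes with the roles named, and the 3 highest and lowest per kilobase. From the other lists, the largest rise and fall and a set of core factors are named, and Gabpb1 and Yy1 were added with their values known. Mrpl46 and Mrps11 were added because their exons overlap. Alternatives changed the scaling (DESeq2 size factors, or library size only), the test (DESeq2 Wald, or limma-trend on rlog values), the filter (none), the terms (no line, or a replicate block) or the libraries (the 8 compared, either line by itself, or all but 1). A block with crossed ANS4 BMP/FGF numbers was added after seeing the data.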

Additional observations from a re-analysis of the deposited data

Results flagged for a closer look

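In 6 of the 93 groups of 4 libraries formed by 31 named members and 3 conditions, 1 library stood apart by Dixon's criterion. Chance alone meets it in about 1 group of 20 for independent values from 1 normal distribution. Each group here mixes both lines, and groups of different genes share libraries, so that rate is only a rough guide. For Mrpl15, ANS4 BMP/FGF replicate 1 gave 39.0 CPM and the other BMP/FGF libraries 35.1 to 35.5. The same library had 27.8 CPM of Mrps21, against 21.3 to 21.8, and 25.2 CPM of Mrps22, against 22.1 to 22.5. Mrpl33 was at 7.69 CPM in ANS4 BMP replicate 2, against 6.47 to 6.57, Mrpl47 at 10.6 CPM in BL6 BMP replicate 2, against 11.8 to 11.9, and Mrps27 at 17.8 CPM in BL6 BMP/FGF replicate 2, against 19.8 to 20.0.

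The response differed between the lines, by the interaction test, in 3 genes in BMP against EGF/FGF and 5 in BMP/FGF against BMP. Of all tested genes, 9.02% and 13.5% differed in these comparisons. Every call but that of Mrpl16 in BMP/FGF against BMP was lost in some alternative settings. In BMP against EGF/FGF the log2 fold change of BL6 minus that of ANS4 was -0.55 for Mrpl16, -0.38 for Mrpl13 and -0.34 for Mrpl17. In BMP/FGF against BMP it was 0.61 for Mrpl16, 0.36 for Mrps6, 0.38 for Mrpl13, 0.44 for Mrps14 and 0.37 for Mrps30. Mrpl16 and Mrpl13 appear in both lists, and the comparisons have the BMP libraries in common. The summed level of all members in BMP was 2240.2 and 2299 CPM in ANS4 and 2086 and 2031 CPM in BL6, a difference that was not tested.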

How the results depend on the processing

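The counts of falls against EGF/FGF stayed within 1.5 times under every alternative run, from 66 to 71 in BMP and from 59 to 63 in BMP/FGF. For single named members, 2044 of 2299 values under alternatives kept their direction and their side of the threshold, 174 lost the call, 25 gained it, 56 changed sign without a call on either side, and 0 called values changed sign. In ANS4 alone the median moved to -0.48 in BMP against EGF/FGF and to 0.12 in BMP/FGF against BMP. Rises in BMP/FGF against EGF/FGF numbered 1 with library size only, limma-trend or BL6 alone and 0 in ANS4 alone. Rises in BMP/FGF against BMP numbered 20 with library size only and 14 in ANS4 alone. Interactions in BMP against EGF/FGF numbered 1 with library size only, limma-trend, no filter, the replicate block or the 8 libraries compared. In BMP/FGF against BMP they numbered 1 with library size only, 2 without a filter, and 3 with the DESeq2 Wald test, the replicate block or the 8 libraries compared, and in BMP/FGF against EGF/FGF 1 with the 8 libraries compared. The cause of these changes was not tested, except that fits with fewer libraries have fewer residual degrees of freedom.

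Leaving out each library in turn gave 67 to 71 falls, 0 rises and medians of -0.59 to -0.53 in BMP against EGF/FGF, 59 to 63 falls, 0 to 3 rises and medians of -0.45 to -0.38 in BMP/FGF against EGF/FGF, and 17 to 31 rises, 0 falls and medians of 0.14 to 0.18 in BMP/FGF against BMP. Interactions ranged over 0 to 7, 0 to 0 and 1 to 7 in the same order. Between the lines, 0 to 1 genes were lower and 0 to 0 higher in BL6, the 1 without ANS4 BMP/FGF replicate 2. A cell of 2 libraries then holds 1, which is assumed to vary like the others.

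Whether replicate numbers pair the libraries is not settled, as replicate differences correlated between conditions from -0.18 to 0.31 within a line. In ANS4 the correlation was 0.31 between BMP and EGF/FGF. For BMP/FGF in ANS4 it was -0.18 with EGF/FGF and -0.13 with BMP. In BL6 the correlations lay between -0.08 and 0.01. The source of the ANS4 values was not tested. With the replicate block, 68 and 61 genes fell against EGF/FGF and 30 rose in BMP/FGF against BMP, and with crossed ANS4 BMP/FGF numbers 69, 62 and 29. The share of member promoters with the ETS motif moved from 37.7% to 26.1% and with the YY1 motif from 11.6% to 2.90% in the bases before the start. Depth limited little here, with at least 79 counts per member and library. With 2 lines, differences between strains cannot be told apart from differences between lines.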
